A study of Mus musculus with 8 samples.

Results

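The mouse olfactory receptor genes from Olfr829 to Olfr986 were examined in RNA bound to polysomes of the main olfactory epithelium, the nasal tissue that holds the odour-sensing neurons. They were chosen by symbol: every entry of the deposited table whose name is Olfr with a number in that range, and no pseudogene suffix, was taken, which gave 108 genes, 9.91% of the 1090 numbered receptor genes among the 21765 genes in the table. Tissue lysates were separated on sucrose gradients after 100 µg/mL cycloheximide, which holds ribosomes on their transcripts, and fractions 27 to 34 (early, lighter polysomes) and 35 to 42 (late, heavier polysomes) were pooled and sequenced. Wild-type (WT) mice were Mex3a flox/flox or Mex3a flox/+ without Cre, and conditional knockout (cKO) mice were Mex3a flox/flox with Cre, so both genotypes carried floxed Mex3a, an RNA-binding protein gene. Early and late pools of each genotype make up 4 groups of 2 libraries, from lysates WT1, WT2, cKO1 and cKO2. Ages, the number of mice behind a lysate and whether lysates came from separate mice were not given in the sources used here, so p-values measure the spread between these libraries, which may be partly technical. Since the whole tissue was lysed, fewer neurons that express a receptor and less receptor RNA in each neuron cannot be told apart.

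The labels of 1 library contradict each other: WT early replicate 2 is titled WT and tagged as cKO. The title was followed here, and results that rest on this library are also given without it. Mex3a was at 93.2 to 115.6 TPM in the 4 WT libraries, with 115.6 in the library in question, and at 11.1 to 19.8 TPM in the 4 cKO libraries. The log2 difference of Mex3a was -2.55 in early (SE 0.18, adjusted p = 0.00457 by limma) and -2.79 in late polysomes (SE 0.18, adjusted p = 0.00282). Without the library in question the early value was -2.42 (adjusted p = 0.0501, within 3.02e-06 to 0.0843 over the 17 alternatives). TPM (transcripts per total of 1000000) is a level per transcript length and per library total. The whole reads behind the TPM values were inferred from their steps and came to between 7778203 and 12773252 per library, of which 1212 to 2923 lay on the 108 receptor genes.

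Olfactory receptors are G protein-coupled receptors of the cilia of olfactory sensory neurons. Each mature neuron expresses a single receptor gene from a single allele, so that every receptor transcript in the tissue comes from a small, separate set of neurons. An odorant-bound receptor acts through the G protein Golf and adenylyl cyclase 3 to open cyclic nucleotide-gated channels. Receptor proteins are translated at the endoplasmic reticulum and need helper proteins to reach the membrane, and receptor coding regions usually lie within a single exon.

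All 108 genes lay on chromosome 9 of GRCm38 in GENCODE, in 2 clusters. The proximal cluster spanned chr9:18854933-20303599 and held 30 of them, Olfr829 to Olfr873, with 19 on the plus and 11 on the minus strand. The distal cluster spanned chr9:37745106-40190134 and held the other 78, Olfr874 to Olfr986, with 54 on the plus and 24 on the minus strand. GENCODE lists 106 as protein coding and 2, Olfr908 and Olfr915, as polymorphic pseudogenes, which are intact in some strains. Coding sequences were 918 to 996 nt long (median 936), while the gene models behind the deposited TPM, inferred for 105 genes, were 924 to 6140 nt long (median 1897).

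The sequence around the start codon, where translation of the coding sequence begins, is shown for some of the genes described in detail below. Olfr871 is added as the near-copy of Olfr870. Olfr918 is not shown, since its annotated transcript has 0 nt before the start codon. Sequences are from GENCODE transcripts on GRCm38, 5′ to 3′ on the transcribed strand, and capitals mark the annotated start codon.
Olfr969: agagaagaaaATGttaaaaggaaatctttc
Olfr970: agagaagaaaATGttaaaaggaaatctttc
Olfr972: ccagaagaaaATGttccaaggaaatctttc
Olfr983: tcgaacagctATGaccccaggaatggtctc
Olfr868: cttaagggaaATGatgaaactaaaaatgga
Olfr923: ctacagaagaATGacacatggaaattactc
Olfr857: tcatctttgaATGgaaataatttatagcct
Olfr851: aagcatatacATGgaatctgcaaaccaaac
Olfr835: tgtcaaagacATGggaggtaaaaaccagac
Olfr920: ttatagaagtATGgctttgataaatggctc
Olfr978: atatgaagaaATGtcaaacacaagcatagt
Olfr870: tgtcaacaacATGaaaccagaaaaccaaac
Olfr871: tgtcaacaacATGaaaccagaaaaccaaac
Of the 92 genes with a full stretch in the annotation, 78 had a purine at the third base before the start codon, 52 had G directly after it and 42 had both, the 2 positions known as the core of the Kozak context. Olfr870 and Olfr871 had the same 30 bases and coding sequences 97.5% identical, and Olfr969 and Olfr970 likewise had the same 30 bases, with coding sequences 92.4% identical. Olfr969 and Olfr972 shared 26 of 30 bases and 88.9% of the aligned coding sequence. Of the 87 genes that aligned to another receptor over at least 90% of their coding sequence, 19 had one at 95% identity or more, and how the counting split reads between such copies is not given in the sources used here. Values of these 19 are therefore uncertain. Those named below are Olfr870, Olfr871, Olfr859 (96.9% identical to Olfr58), Olfr910 (96.0% to Olfr912), Olfr926 (96.1% to Olfr924), Olfr952 (98.1% to Olfr955), Olfr978 and Olfr980 (95.6% to each other).

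The conserved stretch at the end of the third membrane-spanning segment, named MAYDRY after its amino acids, was spelled in full by the coding sequence of 76 of the 108 genes. It is shown, with its codons in capitals, for 3 nearby distal genes described below, Olfr969, Olfr971 and Olfr972. It is also shown for the gene that was lowest and the gene that was highest in late relative to early polysomes, Olfr983 and Olfr918.
Olfr969: gctgtaATGGCATATGATCGCTATgttgcc
Olfr971: gctgtaATGGCATATGACCGCTATgttgcc
Olfr972: gctgtaATGGCATATGACCGCTATgttgcc
Olfr983: acagcaATGGCCTATGACAGATATgctgcc
Olfr918: acctcaATGGCCTATGATCGCTATgtagcc
Olfr971 and Olfr972 were identical over this stretch, although their coding sequences were 77.6% identical as a whole. Their levels in the 8 libraries, given below, did not move together, which was not tested between the genes.

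Receptor transcripts of these clusters were scarce and spread over many genes. Their summed level was 195.4 and 235.9 TPM early and 198.0 and 205.2 TPM late in WT, and 194.1 and 221.4 TPM early and 170.0 and 177.5 TPM late in cKO. Both cKO late libraries lay below the other 6. As a share of the summed TPM of all numbered receptors the genes held between 7.51% and 7.74% in every library, so their sum moved with that of the whole family. Of the 108 genes, 85 were above 0 in all 8 libraries and 1, Olfr926, was listed at 0 in all 8, although its near-copy Olfr924 was tested.

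Olfr969 was the most abundant, with a mean of 10.0 TPM, ahead of Olfr870 at 5.43 TPM, and the median gene had 1.50 TPM against 1.90 TPM for the other numbered receptors. The 10 most abundant genes (Olfr969, Olfr870, Olfr959, Olfr835, Olfr961, Olfr972, Olfr849, Olfr859, Olfr857 and Olfr877) held 25.2% of the summed mean TPM, and 26 genes made up the upper 50% of it. Olfr969 had the highest level of the 108 genes in 6 of the 8 libraries. Olfr857 was highest in WT early replicate 2 and Olfr835 in cKO early replicate 2.

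**Figure D1:**
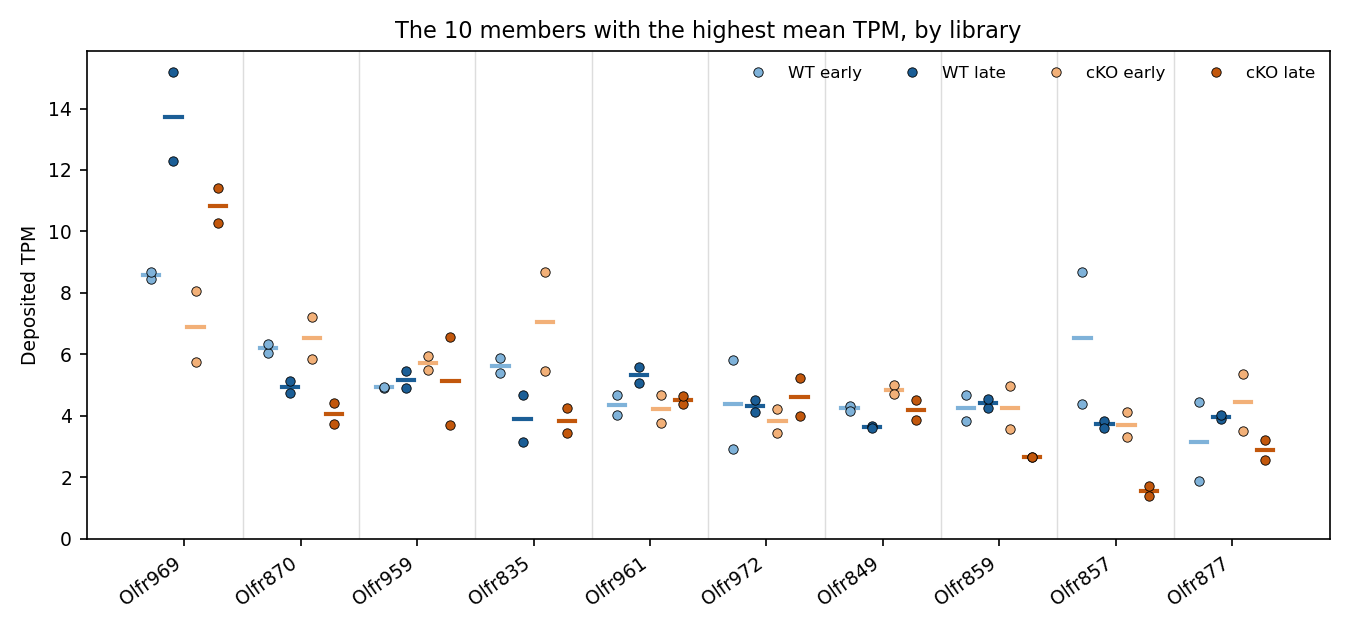
Deposited TPM (vertical axis, linear from 0) of the 10 genes with the highest mean TPM; each point is a library, bars are means of the 2 libraries of a group, and colours give the 4 groups. Olfr969 stands above the rest and higher in late than early libraries, while Olfr870 and Olfr835 are higher in early libraries of each genotype.

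Fits across all genes covered the 16097 with a mean of at least 1 TPM, among them 76 of the 108 receptor genes (70.4%, against 76.2% of the other numbered receptors). The lowest of the 76, Olfr980, had a mean of 1.03 TPM, and the highest of those left out, Olfr976, had 0.945 TPM. Of the 32 left out, 31 were above 0 in at least 1 library, and 2, Olfr908 and Olfr952, were above 0 in a single library. Olfr871, the near-copy of Olfr870, was among those left out, at 0 to 1.26 TPM. No statement on differences between groups is made for these 32 genes.

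The comparison of fractions asks whether transcripts sit on lighter or heavier polysomes. On average over genotypes, 2 of the 76 tested genes were higher in late polysomes, Olfr969 and Olfr918, and 18 were lower, by limma with Benjamini-Hochberg adjusted p under 0.05. Among all genes tested, 34.3% were called higher and 34.6% lower, 68.9% in all, and 18 of the 20 receptor calls were in the lower direction. At an unadjusted p under 0.05 there were 24 of the 76, where 71.5% of all genes were. Their median late-minus-early difference was -0.20 on the scale of log2(scaled TPM + 1), against -0.21 for the other numbered receptors and -0.01 for all genes. The receptors Olfr987 to Olfr1318 had a median of -0.19 and Olfr763 to Olfr827 one of -0.42, which were not tested against the chromosome 9 genes. Lysate by lysate the median was -0.05 (WT1), -0.28 (WT2), -0.12 (cKO1) and -0.37 (cKO2).

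The split between higher and lower calls depended on the scaling. It was 4 higher and 14 lower on TPM as deposited, 5 and 9 after quantile normalization, and 2 and 20 with voom on the inferred reads. The median stayed below 0 in each of these, at -0.14, -0.07 and -0.32. Without WT early replicate 2 the median was -0.18, and 11 genes were called, 2 higher and 9 lower, all 11 of them among the 20. That drop from 20 to 11 was the largest of the 8 fits that each left out a library.

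Olfr969, a distal cluster gene at chr9:39790945-39796635 on the plus strand, rose in late polysomes. Its level was 8.46 and 8.68 TPM early and 12.3 and 15.2 TPM late in WT, and 8.05 and 5.76 TPM early and 10.3 and 11.4 TPM late in cKO, on 37 to 97 reads per library. Each late library lay above each early library. The log2 difference was 0.50 (SE 0.12, adjusted p = 0.00611 by limma). Its neighbour Olfr970, with the same start context and chosen for that after its values were seen, was at 2.73 and 4.31 TPM early and 3.26 and 3.82 TPM late in WT, and 3.26 and 4.85 TPM early and 4.55 and 1.71 TPM late in cKO. The fractions of Olfr970 overlapped, with a log2 difference of -0.26 (SE 0.26, adjusted p = 0.391). Olfr972, which has a similar start context, was at 5.81 and 2.93 TPM early and 4.13 and 4.52 TPM late in WT, and 3.44 and 4.24 TPM early and 4.00 and 5.22 TPM late in cKO. The fractions of Olfr972 overlapped in both genotypes, with a log2 difference of 0.03 (SE 0.19, adjusted p = 0.892).

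Olfr918, on the minus strand at chr9:38669861-38674601, was the other gene that rose. It was at 0.92 and 1.58 TPM early and 3.00 and 4.65 TPM late in WT, and 2.13 and 1.59 TPM early and 3.47 and 4.24 TPM late in cKO. All 4 late libraries were above all 4 early ones. The log2 difference was 0.84 (SE 0.19, adjusted p = 0.00368), and 7 to 32 reads lay behind each value.

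The gene that fell most was Olfr983, near the end of the distal cluster at chr9:40086908-40093595. It had 2.57 and 5.27 TPM early and 1.29 and 0.89 TPM late in WT, and 4.58 and 3.28 TPM early and 1.70 and 2.16 TPM late in cKO. The late libraries were lower without overlap, with a log2 difference of -1.04 (SE 0.22, adjusted p = 0.00269). Olfr868, in the proximal cluster at chr9:20098626-20104754, had 3.78 and 4.89 TPM early and 2.28 and 1.94 TPM late in WT, and 3.76 and 3.59 TPM early and 1.67 and 1.40 TPM late in cKO. Its late values were all below its early values, and it had the smallest adjusted p of the 76 genes (log2 difference -0.91, SE 0.15, adjusted p = 0.000751).

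Olfr923, a distal gene at chr9:38826545-38830300, was at 4.27 and 4.79 TPM early and 2.03 and 2.06 TPM late in WT, and 3.86 and 6.40 TPM early and 2.88 and 2.60 TPM late in cKO. Both late levels were below both early levels in each genotype, and the log2 difference was -0.86 (SE 0.17, adjusted p = 0.00207). Olfr857, at chr9:19709433-19714930, had 4.40 and 8.68 TPM early and 3.84 and 3.61 TPM late in WT, and 3.31 and 4.12 TPM early and 1.39 and 1.72 TPM late in cKO. Its fall of -0.84 (SE 0.20, adjusted p = 0.00571) was -0.62 without WT early replicate 2, its highest library. WT late and cKO early libraries of Olfr857 overlapped.

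Olfr851, at chr9:19493295-19502815, was at 4.07 and 4.94 TPM early and 2.62 and 3.10 TPM late in WT, and 3.03 and 4.65 TPM early and 1.76 and 1.98 TPM late in cKO, and fell by 0.71 on the log2 scale (SE 0.17, adjusted p = 0.00471). Olfr835, at chr9:19032735-19037670, was at 5.88 and 5.39 TPM early and 3.15 and 4.66 TPM late in WT, and 5.45 and 8.69 TPM early and 3.44 and 4.25 TPM late in cKO, and fell by 0.68 (SE 0.18, adjusted p = 0.00803). Olfr870, at chr9:20168533-20174057, was at 6.05 and 6.34 TPM early and 4.74 and 5.13 TPM late in WT, and 5.84 and 7.21 TPM early and 4.42 and 3.72 TPM late in cKO, and fell by 0.52 (SE 0.13, adjusted p = 0.00616). In Olfr835 and Olfr870 every late library lay below every early one. In Olfr851 this held on scaled TPM. On deposited TPM it held within each genotype, while the WT late and cKO early libraries of Olfr851 overlapped.

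Olfr920, at chr9:38752299-38760117, had 1.40 and 1.77 TPM early and 1.01 and 1.27 TPM late in WT, and 1.43 and 1.75 TPM early and 0.23 and 0.16 TPM late in cKO. Its log2 difference was -0.75 (SE 0.19, adjusted p = 0.00644), and the cKO late values rest on 2 and 1 reads. The 10 genes called on average and named here (Olfr969, Olfr918, Olfr983, Olfr868, Olfr923, Olfr857, Olfr851, Olfr835, Olfr870 and Olfr920) were still called under each of the 15 or 16 alternatives in which each was tested. Of the other abundant genes, Olfr849 (log2 difference -0.27, SE 0.12, adjusted p = 0.0724) and Olfr859 (-0.33, SE 0.15, adjusted p = 0.0785) missed the threshold. Olfr959 (-0.16, SE 0.16), Olfr961 (0.07, SE 0.13) and Olfr877 (-0.16, SE 0.23) had differences within their error.

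**Figure D2:**
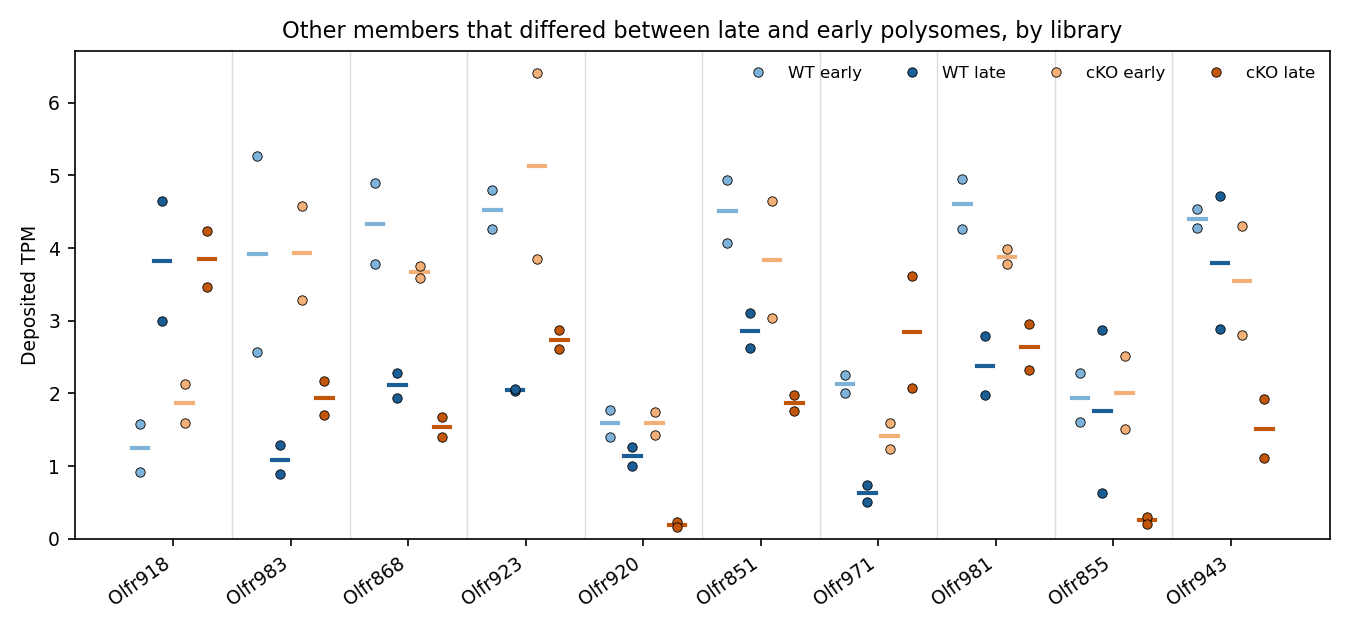
Deposited TPM (vertical axis, linear from 0) of 10 further genes named for a difference between fractions; each point is a library, bars are means of the 2 libraries of a group, and colours give the 4 groups. Olfr918 is higher in late libraries of both genotypes, Olfr983, Olfr868 and Olfr923 are lower in both, Olfr971 is lower in late than early libraries of WT and higher in those of cKO, and Olfr920 and Olfr855 are near 0 in both cKO late libraries.

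Each genotype was also compared on its own. In WT, 2 genes were higher and 6 lower in late polysomes, where 54.8% of all genes were called, and the median of the 76 was -0.08. At an unadjusted p under 0.05 there were 13 genes (60.3% of all genes). In cKO, 1 was higher and 13 lower, where 58.1% of all genes were called, and the median was -0.28. At an unadjusted p under 0.05 there were 19 genes (63.0% of all genes). The 4 genes Olfr969, Olfr983, Olfr868 and Olfr923 were called in both genotypes, each in the same direction, which is 50.0% of the WT calls and 28.6% of the cKO calls. The share of all genes called in both genotypes is not given here, so these percentages cannot be read as high or low. Across the 76 genes the WT and cKO differences correlated at r = 0.565, against 0.564 across 748 other receptors and 0.889 across all 16097 genes. This is a description over genes that share libraries, and the 76 have few reads each.

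In WT, the number of calls changed with single libraries. Without WT early replicate 2, 1 gene was called (Olfr918, log2 difference 1.24), while the share of all genes called went from 54.8% to 36.5%. The other WT genes named here did not pass in that fit, with differences of 0.54 for Olfr969, -0.86 for Olfr923, -0.93 for Olfr971, -0.72 for Olfr981, -0.69 for Olfr868 and -0.83 for Olfr983. Without WT late replicate 2, 2 genes were called. Under quantile normalization the WT median of the 76 was 0.04, with 5 genes higher and 5 lower, and the median of all genes was also 0.04, against -0.01 with the main scaling. With all libraries, Olfr918 rose by 1.01 (SE 0.26, adjusted p = 0.0118) and Olfr969 by 0.52 (SE 0.17, adjusted p = 0.0331). Olfr983 fell by 1.24 (SE 0.31, adjusted p = 0.00923), Olfr923 by 0.93 (SE 0.24, adjusted p = 0.0113) and Olfr868 by 0.85 (SE 0.21, adjusted p = 0.0101).

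Olfr981, at chr9:40021464-40030377, had 4.26 and 4.95 TPM early and 2.78 and 1.98 TPM late in WT, and fell by 0.81 in WT (SE 0.22, adjusted p = 0.0128). In cKO it had 3.99 and 3.78 TPM early and 2.95 and 2.32 TPM late, again lower in late than early. Olfr971, at chr9:39836876-39841281, had 2.01 and 2.25 TPM early and 0.51 and 0.74 TPM late in WT, and fell by 0.99 in WT (SE 0.27, adjusted p = 0.0140). Its WT late values rest on 5 reads against 19 in WT early, a ratio of 0.296 per unit of depth with an exact 95% binomial interval of 0.0863 to 0.819, which, like the other intervals and floors here, covers counting error only.

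In cKO, Olfr868 fell by 0.97 (SE 0.21, adjusted p = 0.00477) and Olfr857 by 0.97 (SE 0.29, adjusted p = 0.0182). Olfr943, at chr9:39166304-39192350, had 2.80 and 4.30 TPM early and 1.11 and 1.92 TPM late in cKO, and fell by 0.94 (SE 0.28, adjusted p = 0.0196), while in WT its levels of 4.27 and 4.54 early and 4.72 and 2.88 late overlapped. Olfr920 fell by 1.17 (SE 0.26, adjusted p = 0.00538), on 3 reads in cKO late against 34 in cKO early, a ratio of 0.127 (interval 0.0249 to 0.404). Olfr855, at chr9:19582617-19586030, fell by 1.31 (SE 0.41, adjusted p = 0.0241), on 3 against 33 reads, a ratio of 0.131 (interval 0.0257 to 0.417), and was at 1.51 and 2.52 TPM early and 0.30 and 0.20 TPM late in cKO. Leaving out a cKO library ended the call of Olfr855 in 3 of 16 alternatives (adjusted p from 0.00784 to 0.139 over the 16), and those of Olfr857 (0.00611 to 0.104) and Olfr943 (0.0160 to 0.136) in 2 of 16 each. In WT, Olfr855 was at 2.28 and 1.61 TPM in early and at 2.87 and 0.63 TPM in late libraries, which overlapped.

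Olfr969 rose by 0.48 in cKO (SE 0.17, adjusted p = 0.0401). This call was lost with lysate as a block in the fit (adjusted p = 0.0525) and in 9 of 17 alternatives, over which the adjusted p ranged from 0.0193 to 0.250. With quantile normalization 2 genes were higher and 8 lower in cKO, and on TPM as deposited 2 and 9. Without cKO early replicate 2, 3 genes were called, without cKO late replicate 1, 8, and without cKO late replicate 2, 9.

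The clusters were set side by side. Of the 20 tested proximal genes, 0 were higher and 7 lower (35.0%) in late polysomes on average, with a median of -0.34. Of the 56 tested distal genes, 2 were higher and 11 lower (19.6%), with a median of -0.14. Of all genes, 34.6% were called lower, so the proximal share was that of genes at large. In 11 of 20 proximal genes the late library was below the early library in 4 of 4 lysates, as it was in 13 of 56 distal genes. That was 24 of 76 in all (31.6%), beside 33.7% of the other tested receptors and 37.8% of all genes. The late library was the higher in 4 of 4 lysates for 5 of 76 (6.58%), beside 7.49% of the other tested receptors and 38.2% of all genes. Tested proximal genes had a median mean level of 2.71 TPM and 314 reads over the 8 libraries, and distal genes 1.71 TPM and 136.5 reads, and the part of this gap in the number of calls was not tested. The median difference in the 4 lysates was -0.25, -0.27, -0.27 and -0.70 for proximal and 0.04, -0.31, -0.09 and -0.29 for distal genes (WT1, WT2, cKO1 and cKO2). Proximal genes were lower than distal genes in 3 of the 4 lysates, and the difference between clusters was not tested.

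**Figure D3:**
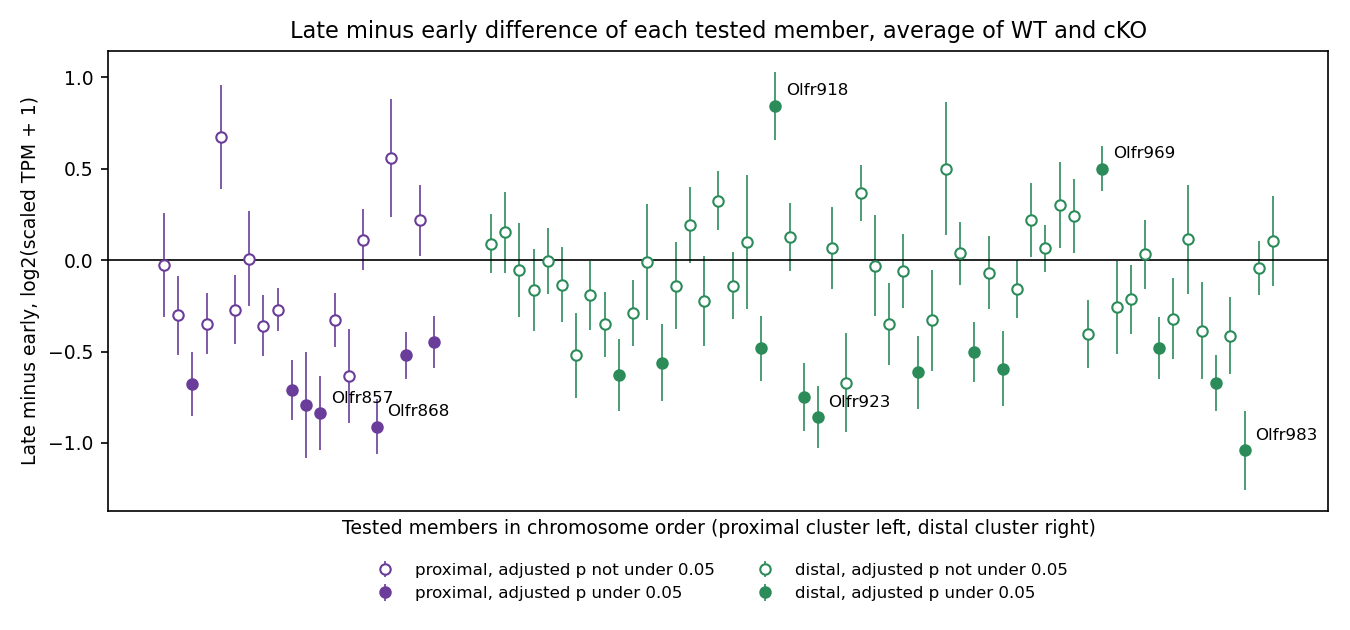
Late-minus-early difference on the scale of log2(scaled TPM + 1), average of WT and cKO, for the 76 tested genes in chromosome order; bars are standard errors, filled points have an adjusted p under 0.05, and colours give the cluster. Olfr918 and Olfr969 in the distal cluster are the only filled points above 0, and 7 proximal and 11 distal filled points lie below 0.

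Transcript features that the choice of genes did not use were set against the late-minus-early difference. An ATG upstream of the annotated start codon can engage scanning ribosomes before they reach the coding sequence. For each gene, the GENCODE transcript closest in length to the inferred model was used, among those with most of the coding sequence. In this transcript, ATG triplets on the transcribed strand were counted between its start and the start codon. Across the 76 genes the difference fell with their number at Spearman's rho = -0.376, with inferred reads over the 8 libraries at -0.320 and with inferred gene model length at -0.302. The value was -0.267 for 3′ UTR length, -0.237 for 5′ UTR length, -0.201 for mean TPM, 0.123 for coding length and 0.136 for GC content of the coding sequence. Across 742 other receptors the upstream ATG value was -0.340. These are descriptions over genes that share the same libraries, and upstream ATG number and the length of the region counted go together.

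The 21 genes with no upstream ATG in the transcript used had a median difference of 0.01, with 1 called lower and 1 higher. The 26 genes with 1 to 4 had -0.05, with 7 lower, and the 29 genes with 5 or more had -0.35, with 10 lower and 1 higher, which was Olfr969 with 6. The share called lower was 4.76%, 26.9% and 34.5% in the 3 classes, beside 34.6% of all genes, so the highest class had the share of genes at large. The other receptors had -0.0004, -0.11 and -0.33 in the same 3 classes. In the 4 lysates the median was 0.20, -0.12, -0.02 and -0.03 with no upstream ATG and -0.23, -0.37, -0.295 and -0.41 with 5 or more, lower in each. With 1 to 4 it was 0.05, -0.13, -0.20 and -0.46, so in cKO2 this class lay below that of 5 or more. Median model length was 1236 nt with none and 2592 nt with 5 or more, and its part in the relation was not tested. In the class with none, the transcripts used for several genes, among them Olfr887, Olfr918 and Olfr948, have 0 nt of 5′ UTR. No upstream ATG could be counted in those transcripts. For Olfr887 and Olfr948 another GENCODE transcript has bases before the same start codon, in which ATG triplets were not counted. The inferred models of Olfr887, Olfr918 and Olfr948, of 3529, 1576 and 2536 nt, are longer than the 930, 978 and 966 nt of the transcripts used. An absent upstream ATG and one outside the transcript used cannot be told apart there.

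The annotated transcript can differ from the authors' gene model. For 33 of the 76 genes the GENCODE transcript was within 5% of the inferred model length, and over these rho was -0.566. Across the 443 other receptors with the same limit it was -0.351, close to the -0.340 across 742 without it. The 33 include genes such as Olfr844, Olfr944 and Olfr971, for which the transcripts used have 0 nt of 5′ UTR, so no upstream ATG could be counted. For Olfr944 and Olfr971 another GENCODE transcript has bases before the same start codon, in which ATG triplets were not counted. Among the genes named above that fell on average, Olfr870 and Olfr920 had 23 upstream ATG each and Olfr851 had 17. Olfr923 and Olfr868 had 4, Olfr835 and Olfr857 had 2 and Olfr983 had 1. Of these genes, Olfr868 and Olfr835 alone are among the 33. The annotated transcripts of Olfr870 (4091 nt, against a model of 2592 nt), Olfr920 (5711 against 2348 nt) and Olfr851 (7123 against 4506 nt) are far longer than the models, so their numbers of upstream ATG are uncertain. Without WT early replicate 2 rho over the 76 genes was -0.318.

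**Figure D4:**
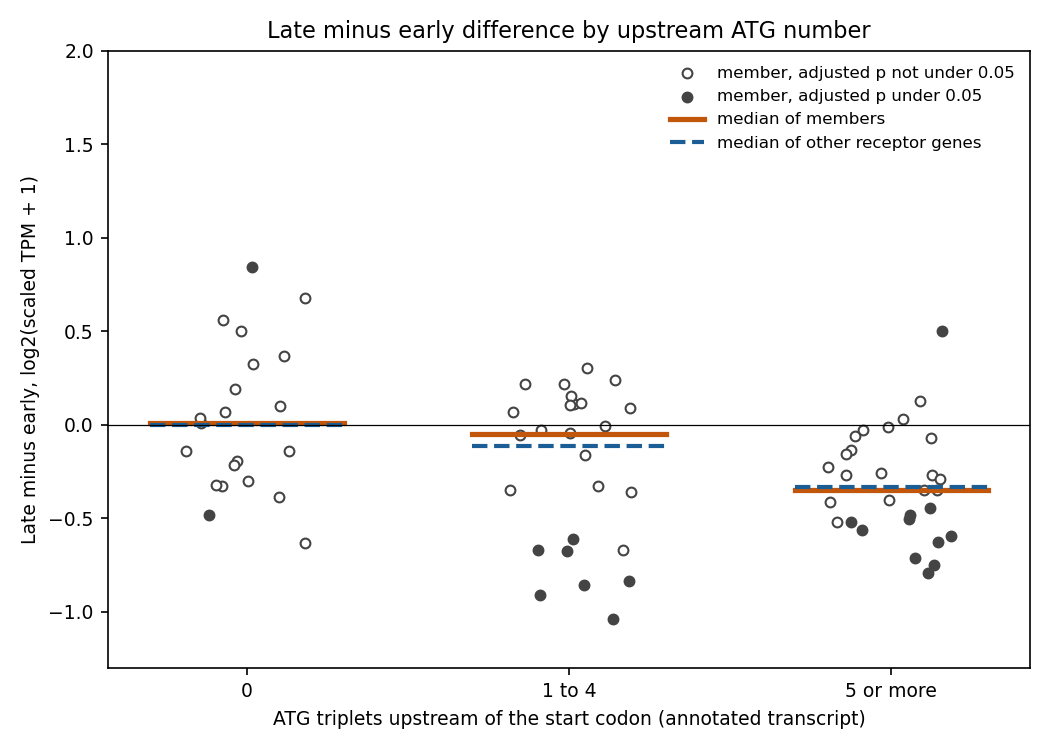
Late-minus-early difference on the scale of log2(scaled TPM + 1) against the number of ATG triplets upstream of the start codon, in 3 classes; each point is a tested gene, filled where the adjusted p is under 0.05, with horizontal jitter only for display. Solid bars are medians of the 76 genes and dashed bars those of the other receptors, and both are lowest in the class of 5 or more.

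The genotype comparison asks whether loss of Mex3a changes receptor transcripts on polysomes. By limma, 0 of the 76 genes passed in early polysomes, where 0.0435% of all genes did (0.0186% higher and 0.0248% lower), and 0 in late polysomes, where 0.0124% did. With the mean of each lysate's early and late values, 0 of 76 passed, where 0.00621% of all genes did. At an unadjusted p under 0.05 there were 5 genes in early polysomes, 11 in late polysomes and 10 on lysate means, where 6.65%, 9.36% and 11.3% of all genes were. Voom on inferred reads also called 0, with 4, 11 and 10 genes at an unadjusted p under 0.05. The median cKO-minus-WT difference was 0.05 in early polysomes, -0.11 in late polysomes and 0.01 on lysate means. For the other numbered receptors it was 0.01, -0.10 and -0.04, and for all genes 0.005, -0.0007 and 0.001.

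Olfr978, a distal gene at chr9:39992113-39995095, came closest to the threshold. It had 1.32 and 2.45 TPM early and 2.27 and 1.47 TPM late in WT, had 0.45 and 0.49 TPM early in cKO, and was at 0 in both cKO late libraries. Every cKO library lay below every WT library. The log2 difference was -0.93 in early (SE 0.31, adjusted p = 0.697) and -1.45 in late polysomes (SE 0.31, adjusted p = 0.328), and -1.19 on lysate means (SE 0.21, adjusted p = 0.271), so it did not pass.

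The reads behind Olfr978 were few, 4 in cKO early against 17 in WT early, a ratio of 0.248 per unit of depth (exact 95% binomial interval 0.0608 to 0.761). A count of 0 in cKO late allows up to 0.875 and 1.19 TPM at a floor of 3 reads per library. The WT late mean of 1.87 TPM, on 15 reads, was 1.81-fold the mean of these floors. Counting error in the WT late mean was not included. Olfr978 passed the filter on mean TPM only through its WT libraries, all above 1 TPM while its cKO libraries were below, so its difference is given as a description. Without WT early replicate 2 the early difference was -0.64. The authors' counting may split reads between Olfr978 and Olfr980.

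Other genes with the smallest unadjusted p in early polysomes were Olfr974 (0.57, SE 0.24), Olfr843 (0.55, SE 0.24) and Olfr910 (0.53, SE 0.23) with higher levels in cKO, and Olfr914 (-0.57, SE 0.26) and Olfr857 (-0.58, SE 0.29) with lower ones. Their adjusted p was 0.740 to 0.781. Olfr914 had 1.62 and 2.01 TPM early and 2.14 and 1.52 TPM late in WT, and 0.76 and 0.96 TPM early and 0.66 and 0.67 TPM late in cKO. Its 4 cKO libraries lay below its 4 WT libraries, with a difference of -0.65 on lysate means (SE 0.19, adjusted p = 0.378). Olfr914 passed the filter on mean TPM only through its WT libraries, all above 1 TPM while its cKO libraries were below. Its difference is therefore given as a description. The early value of Olfr857 was -0.15 without WT early replicate 2.

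In late polysomes Olfr971 (1.21, SE 0.27, adjusted p = 0.332), Olfr894 (0.63, SE 0.25) and Olfr915 (1.09, SE 0.52) had higher values in cKO, and Olfr943 (-0.89, SE 0.28) and Olfr920 (-0.80, SE 0.26) lower ones. Olfr915, 1 of the 2 polymorphic pseudogenes, was at 0 in WT early replicate 2 and WT late replicate 1. It was at 1.55 TPM in WT early replicate 1 and at 1.23 TPM in WT late replicate 2. The 4 cKO libraries were at 1.35 to 2.93 TPM, so the genotypes overlapped. Its mean scaled TPM was 0.777 in WT early and 0.573 in WT late. Olfr915 thus passed the filter on mean TPM through its cKO libraries, and its difference is given as a description. On lysate means Olfr915 (0.86, SE 0.22, adjusted p = 0.359), Olfr957 (0.49, SE 0.19) and Olfr974 (0.41, SE 0.17) had the smallest p among higher values, and Olfr857 (-0.71, SE 0.19, adjusted p = 0.367) followed Olfr978 among lower ones. None of these passed.

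**Figure D5:**
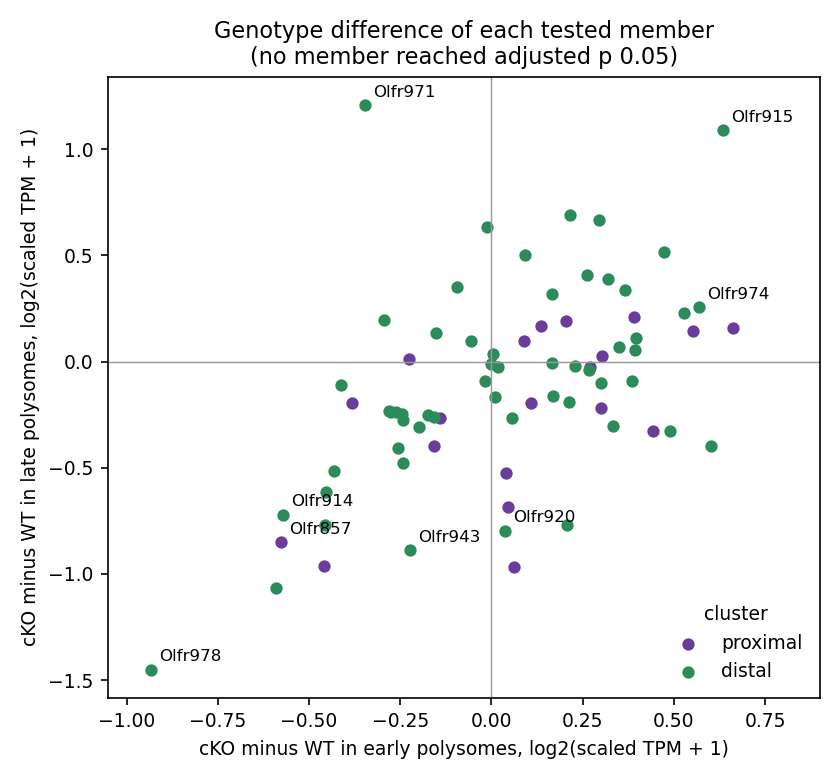
Difference between cKO and WT on the scale of log2(scaled TPM + 1) in early (horizontal) and late (vertical) polysomes for the 76 tested genes, coloured by cluster. Olfr978 lies lowest on both axes, Olfr971 and Olfr915 highest on the vertical axis, and 0 genes passed the adjusted p in either comparison.

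The interaction asks whether the step from early to late polysomes differs between genotypes. By limma 0 of the 76 genes passed, where 0.00621% of all genes did, with 3 at an unadjusted p under 0.05 (2.85% of all genes), and voom called 0 with 4. The median interaction was -0.17, and -0.28 without WT early replicate 2. With all libraries it was -0.12 for the other numbered receptors and -0.01 for all genes. Olfr971 had the largest value, 1.55 (SE 0.38, adjusted p = 1.0): its level went from 2.01 to 0.51 TPM in WT1 and from 2.25 to 0.74 in WT2, and from 1.59 to 2.07 in cKO1 and from 1.23 to 3.61 in cKO2. Both WT lysates were lower in late polysomes and both cKO lysates higher, on 2 to 10 reads per library. Olfr919 (-0.999, SE 0.37), Olfr920 (-0.83, SE 0.37), Olfr867 (-0.77, SE 0.34), Olfr894 (0.64, SE 0.36) and Olfr916 (0.49, SE 0.36) did not pass.

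Genes that act with the receptors were read from the same fit. Of 14 odorant signalling genes, 9 were higher and 4 lower in late polysomes on average, with a median of 0.38. Adcy3, the adenylyl cyclase of the cilia, rose by 1.58 (SE 0.12, adjusted p = 2.17e-05), and Cnga4, a channel subunit, by 1.32 (SE 0.10, adjusted p = 2.28e-05). Gng13, a short G protein subunit, fell by 1.73 (SE 0.14, adjusted p = 2.71e-05). All 3 receptor export genes passed, with Rtp1 (0.48, SE 0.08) and Rtp2 (0.48, SE 0.07), which carry receptors to the membrane, higher, and Reep1 (-0.45, SE 0.09) lower. Of 11 receptor choice genes, 6 were higher, among them the histone demethylase Kdm1a (0.88, SE 0.08), and 4 lower, among them Lhx2 (-0.80, SE 0.08), a homeodomain factor that binds receptor enhancers. Between genotypes 0 of the 28 passed in early, late, lysate-mean or interaction comparisons by limma, with 2, 2, 1 and 1 at an unadjusted p under 0.05.

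Transcripts that mark cell types also differed between the fractions. By library names the early and late pools share a lysate, so these values describe where transcripts lay on the gradient, not numbers of cells. The 8 mature olfactory neuron markers summed to 10320 and 12530 TPM early and 8297 and 8839 TPM late in WT. In cKO they summed to 11080 and 10720 TPM early and 7945 and 7228 TPM late. All 4 late sums were below all 4 early sums, yet 5 of the 8 markers were higher and 3 (Omp, Gng13 and Stoml3) lower in late polysomes. Of 5 sustentacular (supporting) cell markers 4 were higher in late polysomes, with sums of 5395 to 5915 TPM in early and 6424 to 8398 TPM in late libraries. All 4 neutrophil markers were lower, with sums of 165.8 to 287.4 TPM in early and 74.1 to 98.3 TPM in late libraries. The part of cell make-up in the receptor differences between genotypes was not tested, and erythroid markers were not analysed here.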

How the data were processed

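Polysome-bound RNA of 8 libraries was sequenced with a stranded total RNA kit. The authors deposited 1 table of TPM, whose columns each sum to 1000000. The submitters' processing notes name FastQC, cutadapt, STAR, DESeq2 and mm10, with no role; the counting tool and annotation are not given in the sources used here. The Cre line is not reported here. TPM states no depth, so whole reads were inferred from TPM steps for 19783 of 19783 genes above 0 in at least 2 libraries (tolerance 0.001).

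TPM was scaled by median ratios, and log2(scaled TPM + 1) was fitted with limma 3.58.1 in R 4.3.3 (empirical Bayes with trend, 4 groups together, genes with mean TPM of at least 1, two-sided p adjusted over all 16097 genes, threshold 0.05). This scale understates the change of low genes. Genotype was also fitted on lysate means. The pairing check of early and late libraries gave correlations of deviations of 0.0863 in WT and 0.0502 in cKO; the pairing itself comes from library names, which give both the same lysate. Positions and transcripts came from GENCODE on GRCm38, and identities from BLAST 2.17.0. Alternatives were other pseudocounts, filters, scalings, blocks, left-out libraries and voom on inferred reads. The scripts were tested on simulated data.

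Named genes were the 10 most abundant, up to 5 higher and 5 lower called genes per comparison without overlap between groups and with mean scaled TPM of at least 1, the 3 smallest unadjusted p per direction where 0 passed, Mex3a and pathway genes. The genes and lists were chosen with earlier results of these data known, and the transcript features after the values were seen. RefSeq windows for these genes mostly begin at the coding start, so promoter motifs were not searched.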

Additional observations from a re-analysis of the deposited data

How the results depend on the processing

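With 2 libraries a group and at most 146 reads on any of these genes in a library, calls and missed calls of the scarcer genes rest on few reads. With only genes of a mean TPM of at least 5, 4 of the genes remained in the fit and 3 were called on average, 1 in WT and 3 in cKO, by the construction of that filter; their median was -0.476 in cKO late against early and 0.169 in cKO against WT early. The median of cKO against WT in late polysomes, -0.107, was -0.190 and -0.149 with pseudocounts of 0.1 and 0.5, -0.0482 after quantile normalization and -0.199 with voom. On lysate means, 0.00717, it was -0.0436 without a filter, 0.0309 at a mean TPM of at least 5, -0.0297 on TPM as deposited and 0.0305 with voom. The cause was not tested.

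Leaving out each library gave 11 to 20 genes called on average, 1 to 9 in WT and 3 to 13 in cKO. Medians ranged from -0.258 to -0.143 on average, -0.275 to -0.0300 in WT and -0.349 to -0.200 in cKO. They ranged from -0.0861 (without WT early replicate 1) to 0.149 for cKO against WT in early polysomes, -0.196 to -0.0495 in late polysomes, -0.280 to -0.0605 for the interaction and -0.0921 to 0.0395 on lysate means, where leaving out a library leaves a genotype with 1 lysate, assumed to vary like the other. In these fits 0 genes were called between genotypes or in the interaction. The late-minus-early difference changed sign for Olfr959 (0.00496 without cKO late replicate 1, from -0.316), Olfr961 (-0.00347 without cKO early replicate 1, up to 0.135), Olfr972 (-0.163 without WT early replicate 2, -0.0355 without cKO early replicate 1, -0.0362 without cKO late replicate 2, up to 0.226) and Olfr877 (0.0732 without WT early replicate 2, from -0.397), and the Mex3a interaction ranged from -0.499 to 0.0168, the latter without cKO early replicate 2.

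The replicate block by lysate gave 22 genes on average, 8 in WT, 12 in cKO and 0 in the interaction (2 unadjusted), and among genes named in the text it changed the call of Olfr969 in cKO only. WT and cKO lysates share only a number, with correlations of deviations of 0.332 in early and 0.143 in late libraries. The replicate block by number gave 0 genes in early polysomes (3 unadjusted), late polysomes (12) and lysate means (11).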
